A study of Mus musculus with 14 samples.

Results

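The interferon-inducible GTPases of the mouse were followed in RNA sequencing of the colon, in *MiR-29ab1-/-* mice and their WT controls. They are 10 genes, chosen by name: the guanylate-binding protein genes *Gbp2*, *Gbp3*, *Gbp6*, *Gbp7* and *Gbp9*, and the immunity-related GTPase genes *Igtp*, *Irgm1*, *Irgm2*, *Iigp1* and *Tgtp2*. All 10 are in both deposited tables, among 55889 genes without dextran sulfate sodium (DSS) and 54721 genes after DSS. All mice are labelled C57BL/6N. One experiment compared 4 WT with 4 *MiR-29ab1-/-* mice that received no DSS. The other compared 3 WT with 3 *MiR-29ab1-/-* mice after 3 days of 3.5% DSS in the drinking water, a detergent-like polymer that injures the colon epithelium and causes colitis. *MiR-29ab1-/-* mice carry a germline deletion of the microRNA genes *Mir29a* and *Mir29b-1* in every cell, while *Mir29b-2* and *Mir29c*, on another chromosome, are not deleted. The study's methods give littermates of 8 to 12 weeks, matched for age and sex, as its general rule, and animals of both sexes without saying which mouse was which. Mice after DSS are numbered here by the columns of their table, which do not match the numbers of the labels.

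Reads counted on genes totalled 14231157 to 18185020 per mouse without DSS and 20076719 to 23153149 after DSS. On the level scale used below, CPM (read counts scaled to a common library size, with edgeR's TMM factors), 3 reads came to at most 0.215 CPM without DSS and 0.159 CPM after DSS, a floor for counting error only. The labels name small intestinal crypts and the study's methods name colon. The colon gene *Car1* had 928 to 4136 CPM in the mice without DSS, while *Apoa4* and *Lct*, markers of small intestinal enterocytes, reached at most 0.110 and 0.330 CPM. Other small intestinal markers were present, *Fabp2* at 144 to 267 CPM, *Alpi* at 9.95 to 21.03 CPM and *Sis* at up to 10.2 CPM. In the mice without DSS, 6 general epithelial markers summed to 9610 to 12787 CPM. There, 4 smooth muscle markers summed to 2.06 to 2.60 CPM, 3 endothelial markers to 2.28 to 4.34 CPM and 5 fibroblast markers to 4.06 to 34.2 CPM. Whether the material was crypts or whole colon wall was not tested. *Mir29a* had 0 reads throughout, so the genotype was read from a neighbouring gene. *Lncpint* had 7 to 23 reads in WT and 1386 to 2889 reads in *MiR-29ab1-/-* mice without DSS, and after DSS 6 to 14 against 706 to 1144. The counts thus separated the genotypes as labelled.

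Interferon gamma, released by T cells and natural killer cells, acts through its receptor and JAK kinases and switches on genes for large GTPases that defend the cell against intracellular bacteria and parasites. Immunity-related GTPases of the effector type, such as the products of *Iigp1* and *Tgtp2*, gather on the vacuole that holds a pathogen and help to break it. The regulatory type, encoded by *Irgm1*, *Irgm2* and *Igtp* (also called *Irgm3*), sits on the cell's own membranes and holds the effectors in check. Guanylate-binding proteins coat pathogen vacuoles and free bacteria and help inflammatory caspases to sense bacterial products. In the gut, epithelial cells and leukocytes both make these GTPases when they meet interferon.

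Their promoters are shown to describe the genes. The genes were chosen as interferon-inducible, so interferon elements in them are not a result of these data. RefSeq start regions on GRCm38.p6, from 250 bases before to 50 bases after the start, were at hand for 7 of the 10 genes, and *Gbp3* had a second one. Each of these 7 genes held the interferon-stimulated response element pattern GAAANNGAAA, read on either strand, where interferon regulatory factors are known to bind. Of all 32851 such regions, 3.44% held it. The second region of *Gbp3* held neither pattern. The gamma-activated site pattern TTCNNNGAA, named for genes that interferon gamma switches on, was in *Igtp*, *Irgm2*, *Tgtp2* and *Gbp7*, and in 8.3% of all regions. Both patterns stood together in 0.45% of all regions. In the stretches below, capitals mark letters of either pattern, each stretch is written along its gene, and the gamma-activated site comes first where there is one.
*Igtp*, chr11:58199503-58199539, plus strand: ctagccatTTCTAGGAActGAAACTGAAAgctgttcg
*Irgm2*, chr11:58214894-58214930, plus strand: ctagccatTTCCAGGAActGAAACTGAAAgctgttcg
*Tgtp2*, chr11:49064265-49064301, minus strand: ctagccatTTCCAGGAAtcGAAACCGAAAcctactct
*Irgm1*, chr11:48871427-48871458, minus strand: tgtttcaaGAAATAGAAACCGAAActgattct
*Gbp2*, chr3:142620596-142620621, plus strand: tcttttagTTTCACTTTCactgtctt
*Gbp3*, chr3:142559991-142560022, plus strand: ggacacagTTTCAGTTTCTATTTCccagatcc
*Gbp7*, chr3:142530222-142530300, plus strand: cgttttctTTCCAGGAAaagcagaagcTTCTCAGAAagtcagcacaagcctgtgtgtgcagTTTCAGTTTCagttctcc

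The stretches of *Igtp* and *Irgm2* shared 36 of 37 letters, and that of *Tgtp2* shared 29 of 37 with *Igtp* and 30 of 37 with *Irgm2*. In these 3 genes the gamma-activated site pattern ended just before the response element. The response element began 34 bases before the start in *Igtp*, 64 in *Irgm2*, 70 in *Tgtp2*, 59 in *Gbp2* and 53 in *Gbp7*. In *Irgm1* and *Gbp3* it was present as 2 overlapping matches, which began 30 and 24 bases before the start in *Irgm1* and 45 and 39 in *Gbp3*. A match is a description of letters and not evidence that a factor was bound in these mice.

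**Figure D1:**
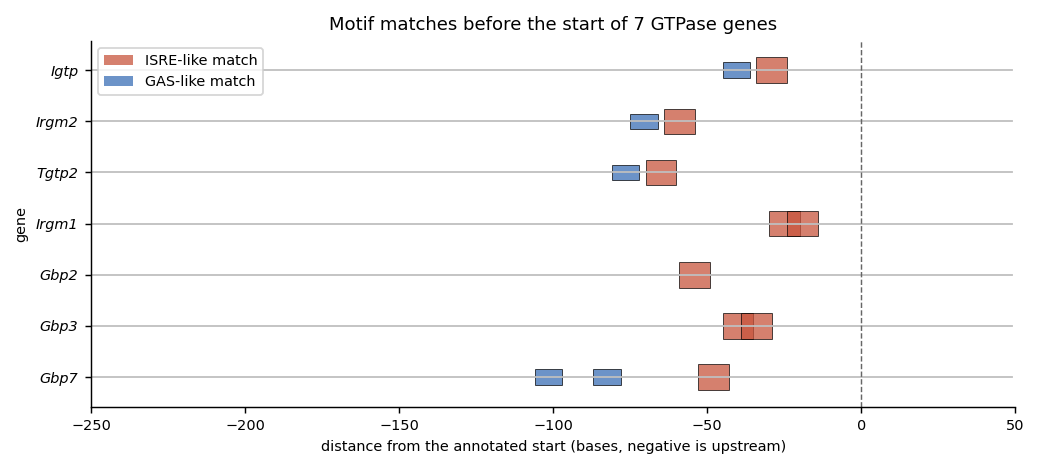
Each row is the start region of a GTPase gene, and the horizontal axis is the distance in bases from the annotated start. Red boxes are matches to the interferon-stimulated response element pattern and blue boxes to the gamma-activated site pattern; every red box lies within 70 bases before the start, and in *Igtp*, *Irgm2* and *Tgtp2* a blue box lies directly before the red one.

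The deleted microRNAs are shown because their seed, bases 2 to 8, in capitals, sets which messenger RNAs they can pair with. Both lie on the minus strand of chromosome 6 of GRCm38.p6, at 31062673 to 31062694 and 31063025 to 31063047, as given by RefSeq.
miR-29a-3p: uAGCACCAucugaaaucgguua
miR-29b-3p: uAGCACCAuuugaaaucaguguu

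The complement of this seed, TGGTGCT, was searched in the 3′ UTRs of the GENCODE vM21 transcripts, where it occurred in 2908 of 21037 genes (13.8%). Of the 10 GTPase genes, 2 held it, each once. The sites are printed with 8 bases on each side and the match in capitals.
*Gbp9*, chr5:105077917-105077939, minus strand: agagttctTGGTGCTgttttatt
*Tgtp2*, chr11:49057941-49057963, minus strand: ggtagtatTGGTGCTttgtcact

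Neither site is followed by the A that makes the strongest kind of seed match. *Igtp*, the GTPase gene that passed the test between genotypes below, had no such site in a 3′ UTR of up to 1210 bases.

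The genes lie in clusters. *Gbp7* (142530342 to 142550149), *Gbp3* (142560026 to 142573209) and *Gbp2* (142620602 to 142638008) stand in a row on chromosome 3, on the plus strand. *Gbp9* (105077630 to 105139539) and *Gbp6* (105270702 to 105293698) are on the minus strand of chromosome 5, and *Gbp9* shares its span with *Gbp4* and *Gbp8*. *Igtp* (58199556 to 58207591) lies almost entirely within the span of *Irgm2* (58199618 to 58222782) on chromosome 11, both on the plus strand. *Irgm1* (48861968 to 48871683) and *Tgtp2* (49057194 to 49064206) are on the minus strand of the same chromosome, the latter inside the span of *Olfr56* on the other strand and beside its near copy *Tgtp1*. *Iigp1* lies away from these clusters. How the authors' counting treated reads shared between such genes is not given in the sources used here, so that counts of *Igtp*, *Irgm2*, *Gbp9* and *Tgtp2* are uncertain to that extent.

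Per length, *Igtp* and *Irgm2*, of the regulatory type, were the most abundant in mice without DSS. On the scale of RPKM (the same level divided by gene length), *Igtp* had 14.95 ± 6.45 (SD, n = 8, both genotypes) and *Irgm2* 14.6 ± 5.17 (SD, n = 8), and *Igtp* was the higher of the pair in 3 of 8 mice. *Irgm2* stood above *Gbp3*, the next gene, in 8 of 8 mice. *Gbp3* (5.33), *Gbp2* (5.21), *Irgm1* (4.55), *Iigp1* (4.06) and *Gbp7* (3.18) followed as mean RPKM, and neighbours in this order changed places between mice. *Gbp7* was above *Gbp9* (1.26 RPKM) in 8 of 8 mice, and *Gbp6* (0.865 RPKM) came next. *Tgtp2* had 0 to 4 reads per mouse, 0.0246 RPKM on average, and was too low to be tested without DSS.

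After DSS, *Igtp* was again the most abundant per length, with 30.0 ± 17.7 RPKM (SD, n = 6, both genotypes), above the next gene in 6 of 6 mice. *Gbp2* (22.2), *Iigp1* (19.4), *Irgm2* (19.3) and *Irgm1* (19.0) followed as mean RPKM, with no fixed order among the last 3 of them. *Gbp3* had 9.08 RPKM, *Gbp7* 3.21 and *Tgtp2* 2.52, and *Gbp9* and *Gbp6* were lowest, at 0.980 and 0.977 RPKM. *Tgtp2* had 40 to 311 reads per mouse here. The tables come from separate experiments with other gene models (the length given for *Iigp1* is 5823 bases without DSS and 3121 after DSS), so DSS and experiment cannot be told apart and levels were not tested across them. *Muc2*, a mucin gene, had 22.03 to 164 CPM without DSS and 3545 to 7982 CPM after DSS.

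Without DSS, the question was whether loss of *MiR-29ab1* changed gene expression in the unchallenged colon. *Igtp* was higher in *MiR-29ab1-/-* mice, and the other 8 tested GTPase genes had higher means in *MiR-29ab1-/-* mice but did not pass the test. For *Igtp*, the regulatory GTPase of the endoplasmic reticulum and lipid droplets, WT mice 1 to 4 had 16.9, 23.4, 26.3 and 20.03 CPM. *MiR-29ab1-/-* mice 1 to 4 had 26.5, 30.3, 41.5 and 56.8 CPM. The genotypes did not overlap, although the highest WT mouse and the lowest *MiR-29ab1-/-* mouse nearly met. Mean levels were 21.7 ± 4.07 CPM in WT mice (SD, n = 4) against 38.8 ± 13.6 CPM in *MiR-29ab1-/-* mice (SD, n = 4). The log2 fold change was 0.84 (standard error 0.24, 95% interval 0.30 to 1.38), or 1.79-fold. Its unadjusted p was 0.0064 and its adjusted p 1.00 in edgeR's quasi-likelihood test.

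Of the 9 GTPase genes with enough reads, 1 was thus higher at an unadjusted p under 0.05, the cutoff the study states, where 2.09% of all 15441 genes tested were. None was lower, against 1.58% of all genes. At an adjusted p under 0.05, 0 of the 9 passed by edgeR and 0 by DESeq2, against 0.0194% of all genes by edgeR. With DESeq2, 5 of the 9 had an unadjusted p under 0.05, namely *Gbp2*, *Gbp7*, *Igtp*, *Irgm1* and *Iigp1*, all higher, where 2.3% of all genes were higher and 1.59% lower by that tool. For 1 of these 9 genes, *Igtp*, the CPM ranges of the genotypes were separate, against 2.03% of all genes. The log2 fold changes of the 9 genes ran from 0.40 to 1.52 with a median of 0.73, beside a median of 0.00 over all genes tested. Where the spread between mice was taken from all 14 mice in a single edgeR model, *Igtp* had an unadjusted p of 0.135, so that 0 of the 9 passed. In that model, 339 of 16370 genes were higher and 281 lower at the same cutoff.

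**Figure D2:**
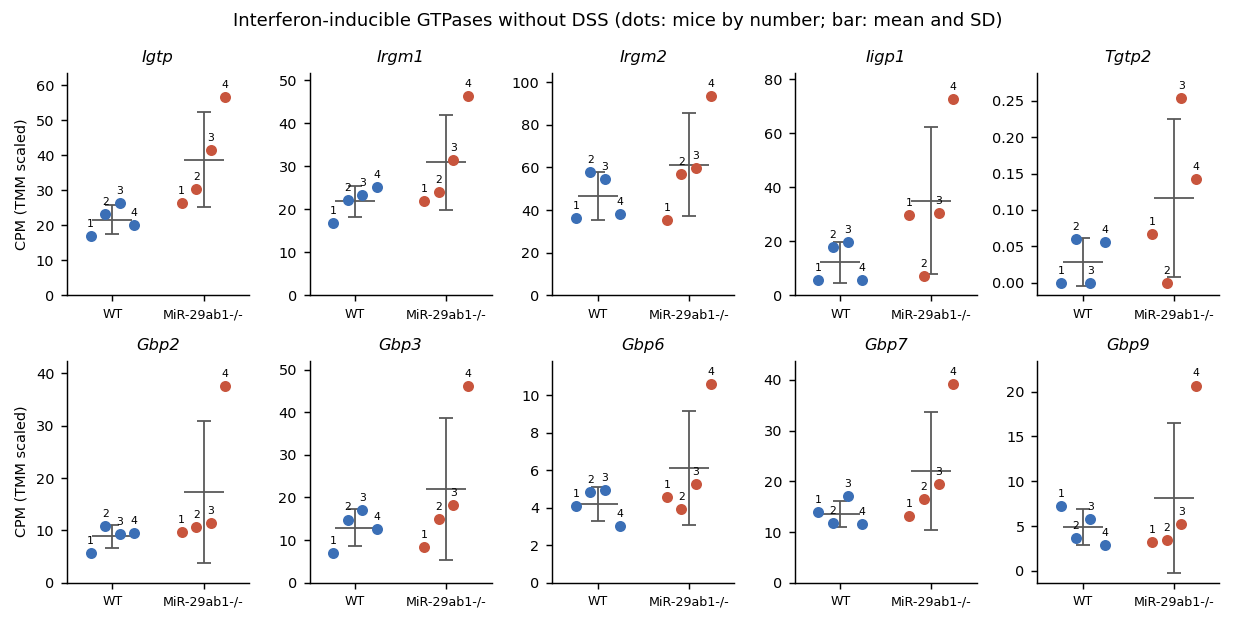
Level of each GTPase gene in CPM in the 4 WT and 4 *MiR-29ab1-/-* mice without DSS, with a dot for each mouse, its number above it, and the mean and SD as bars. *MiR-29ab1-/-* mouse 4 is the highest in all genes but *Tgtp2*, whose reads were 0 to 4 per mouse, and only in *Igtp* do the genotypes not overlap.

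Much of the difference rested on 1 animal. *MiR-29ab1-/-* mouse 4 was the highest of the 8 mice in 9 of the 9 tested GTPase genes, and the 10 genes together made 424 CPM there, against 153 to 223 CPM in the others of that genotype and 114 to 178 CPM in the WT group. With this mouse left out, the median log2 fold change was 0.24. *Igtp* still passed, with a log2 change of 0.60 (unadjusted p = 0.0095, adjusted p = 1.00 in edgeR), and *Gbp9* turned to −0.31; 1.89% of all genes were higher in that fit. Leaving out another mouse moved the count of GTPase genes past the cutoff as well. It was 5 without *MiR-29ab1-/-* mouse 1 (*Gbp2*, *Gbp7*, *Igtp*, *Irgm1* and *Irgm2*), 5 without *MiR-29ab1-/-* mouse 2 (*Gbp2*, *Gbp7*, *Igtp*, *Irgm1* and *Iigp1*) and 2 without WT mouse 3 (*Gbp7* and *Igtp*). In these fits 2.22%, 2.09% and 1.98% of all genes were higher at the same cutoff.

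The other regulatory GTPases did not pass the test. *Irgm1*, whose loss leaves mice open to intracellular bacteria, had 16.8, 22.3, 23.3 and 25.3 CPM in WT mice 1 to 4 and 21.9, 24.1, 31.4 and 46.4 CPM in *MiR-29ab1-/-* mice 1 to 4. The groups overlapped, and the log2 fold change was 0.50 (standard error 0.23, unadjusted p = 0.060, adjusted p = 1.00 in edgeR). *Irgm2*, which sits at the Golgi, had 36.2, 57.8, 54.4 and 38.2 CPM in WT mice and 35.2, 56.9, 59.8 and 93.6 CPM in *MiR-29ab1-/-* mice. Its first 3 *MiR-29ab1-/-* mice lay in or near the WT range, and the log2 fold change was 0.40 (standard error 0.29, unadjusted p = 0.203 in edgeR).

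Of the 9 tested GTPase genes, *Iigp1*, of the effector type, varied most. WT mice 1 to 4 had 5.77, 17.7, 19.8 and 5.62 CPM, and *MiR-29ab1-/-* mice 1 to 4 had 29.8, 7.30, 30.5 and 72.7 CPM. Thus 3 of 4 *MiR-29ab1-/-* mice lay above every WT mouse and mouse 2 lay among the lower WT mice. The log2 fold change was 1.52 with a 95% interval of −0.20 to 3.23 (standard error 0.73, unadjusted p = 0.075 in edgeR). *Tgtp2* had 0, 1, 0 and 1 reads in WT mice and 1, 0, 4 and 2 reads in *MiR-29ab1-/-* mice, which overlap and gave p = 0.171 in a two-sided exact permutation test, where 0.0286 is the smallest p that 4 against 4 mice allow.

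Among the guanylate-binding protein genes, *Gbp2*, whose product is anchored to membranes by a lipid, had 5.66, 10.9, 9.31 and 9.57 CPM in WT mice and 9.79, 10.6, 11.4 and 37.6 CPM in *MiR-29ab1-/-* mice. Mouse 4 alone stood apart, and the log2 fold change was 0.97 (standard error 0.47, unadjusted p = 0.072 in edgeR). *Gbp7*, whose product works with the phagocyte oxidase, had 13.9, 11.9, 17.1 and 11.6 CPM in WT mice and 13.2, 16.6, 19.5 and 39.1 CPM in *MiR-29ab1-/-* mice. Here the groups overlapped at their lower end, and the log2 fold change was 0.70 (standard error 0.32, unadjusted p = 0.056 in edgeR). *Gbp3* (log2 fold change 0.77, standard error 0.52), *Gbp6* (0.53, standard error 0.32) and *Gbp9* (0.73, standard error 0.64) overlapped between genotypes as well, and their unadjusted p ran from 0.126 to 0.288 in edgeR. In *Gbp9*, WT mouse 1 had 7.25 CPM, above *MiR-29ab1-/-* mice 1 to 3, which had 3.24, 3.405 and 5.20 CPM.

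Markers of leukocytes also differed between these mice. The summed level of 8 T cell markers was 181 CPM in *MiR-29ab1-/-* mouse 4 and 35.0 to 90.2 CPM in the other mice of that genotype. WT mice spanned 42.4 to 156 CPM, and 0 of the 8 markers was at 0 in any mouse. The 5 markers of cytotoxic cells summed to 142 CPM in *MiR-29ab1-/-* mouse 4 and to 12.0 to 59.5 CPM in the others of that genotype, with 1 of the 5 at 0 in mouse 3. WT mouse 1 had 156 CPM for T cells, less than *MiR-29ab1-/-* mouse 4, and 151 CPM for cytotoxic cells, which was more. Its summed GTPase level, 114 CPM, was the lowest of all 8 mice. The 4 B cell markers summed to 16.6 CPM in *MiR-29ab1-/-* mouse 4 and to 2.41 to 9.41 CPM in the other mice. The part of any of these leukocytes in the GTPase levels was not tested. In tissue of mixed cells, more GTPase RNA per cell and more cells that make it cannot be told apart. *MiR-29ab1-/-* mouse 4 also had the fewest reads, and 12.3% of them were mitochondrial, against 5.71% to 13.9% in the other mice.

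After DSS, the question was whether the genotypes differed in the injured colon. No GTPase gene passed the test in either direction, while mice of both genotypes differed widely among themselves. For *Igtp*, WT mice 1 to 3 had 21.2, 71.0 and 105 CPM and *MiR-29ab1-/-* mice 1 to 3 had 53.5, 20.1 and 93.6 CPM. Each genotype thus held a low and a high mouse, and the log2 fold change was −0.23 (standard error 0.82, 95% interval −2.37 to 1.91, unadjusted p = 0.788, adjusted p = 0.963 in edgeR). Of the 10 genes, all now tested, 0 were higher and 0 lower at an unadjusted p under 0.05, and 0 at an adjusted p, by edgeR and by DESeq2. Over all 14908 genes tested, 3.98% were higher, 3.25% lower and 0.0134% past the adjusted cutoff by edgeR, and 7.92% were higher or lower by DESeq2. The CPM ranges of the genotypes were separate for 0 of the 10 genes, against 11.6% of all genes.

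**Figure D3:**
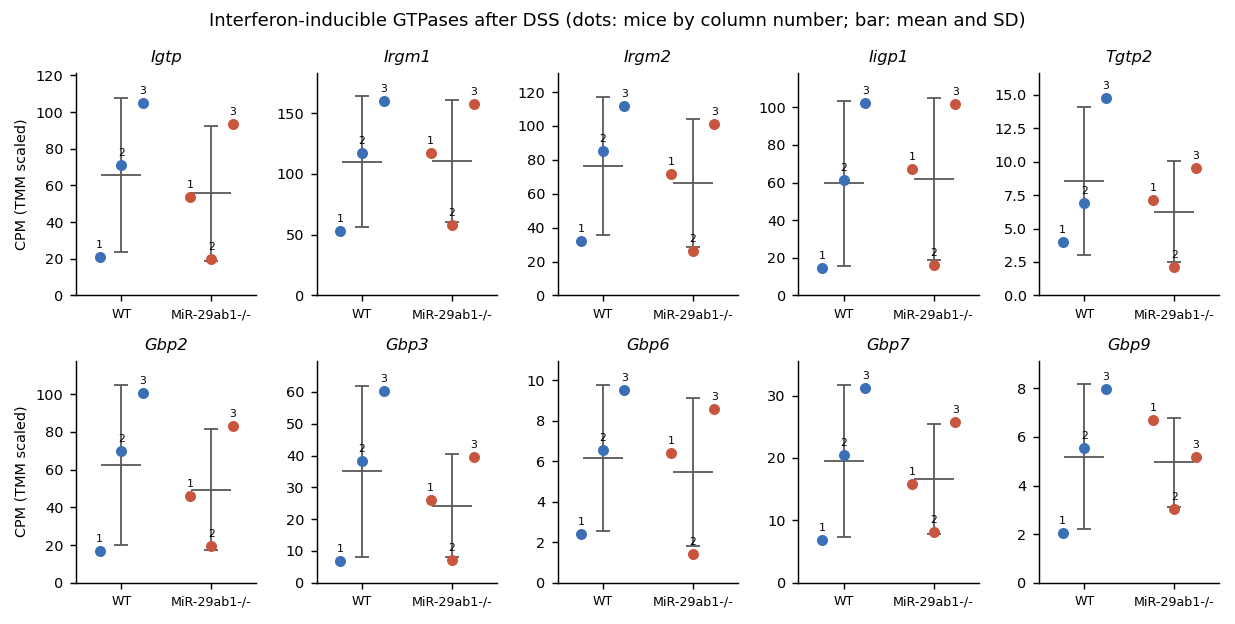
Level of each GTPase gene in CPM in the 3 WT and 3 *MiR-29ab1-/-* mice after 3 days of DSS, with a dot for each mouse, its column number above it, and the mean and SD as bars. WT mouse 1 and *MiR-29ab1-/-* mouse 2 are the lowest pair in all 10 genes, WT mouse 3 is the highest in all 10, and the genotypes overlap throughout.

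The same mice stood at the ends in each gene. WT mouse 1 and *MiR-29ab1-/-* mouse 2 were the lowest pair in 10 of the 10 genes and WT mouse 3 the highest in 10 of 10. Summed over the genes, WT mice 1 to 3 had 160, 482 and 703 CPM and *MiR-29ab1-/-* mice 1 to 3 had 418, 161 and 626 CPM. The log2 fold changes of the genes ran from −0.53 (*Gbp3*) to 0.06 (*Iigp1*), with a median of −0.21 beside −0.01 over all genes tested. The median was 0.29 without WT mouse 3, 0.17 without *MiR-29ab1-/-* mouse 2, −0.60 without WT mouse 1 and −0.67 without *MiR-29ab1-/-* mouse 3, so its sign hung on single mice. Every one of the 10 intervals at 95% reached beyond 1 on the log2 scale in both directions, so a 2-fold difference either way lay within them.

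*Iigp1* had 14.5, 61.5 and 103 CPM in WT mice 1 to 3 and 67.3, 16.3 and 102 CPM in *MiR-29ab1-/-* mice 1 to 3. The means, 59.5 ± 44.1 CPM (SD, n = 3) and 61.8 ± 43.1 CPM (SD, n = 3), nearly coincided (log2 fold change 0.06, standard error 0.96, unadjusted p = 0.954 in edgeR). *Tgtp2*, measurable here, had 4.01, 6.94 and 14.7 CPM in WT mice and 7.15, 2.12 and 9.52 CPM in *MiR-29ab1-/-* mice. It had the smallest unadjusted p of the 10 genes, 0.534 in edgeR, and its log2 fold change was −0.44 (standard error 0.67). *Gbp2* had 16.7, 69.6 and 101 CPM in WT mice and 45.9, 19.4 and 83.1 CPM in *MiR-29ab1-/-* mice, again with a low mouse in each group (log2 fold change −0.33, standard error 0.85, unadjusted p = 0.714 in edgeR). *Irgm1* spanned nearly the same range in both genotypes, 53.2 to 160 CPM in WT and 57.7 to 157 CPM in *MiR-29ab1-/-* mice (log2 fold change 0.01).

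The 2 low mice were not alike in other measures. *MiR-29ab1-/-* mouse 2 had 20.2% mitochondrial reads and 22.3% of its reads on its 10 largest genes, the highest values of the 6 mice, and a TMM factor of 0.865, while WT mouse 1 had 8.81% mitochondrial reads and a TMM factor of 1.04. The 4 neutrophil markers summed to 235 CPM in *MiR-29ab1-/-* mouse 2, the highest of the 6 mice, and to 45.2 CPM in WT mouse 1, the lowest. The 8 T cell markers summed to 82.3 and 51.5 CPM in these mice, within the 40.7 to 136 CPM of the other mice. General epithelial markers (6 genes) summed to 16311 to 20207 CPM over the 6 mice. The part of mitochondrial reads and leukocytes in the GTPase levels was not tested.

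**Figure D4:**
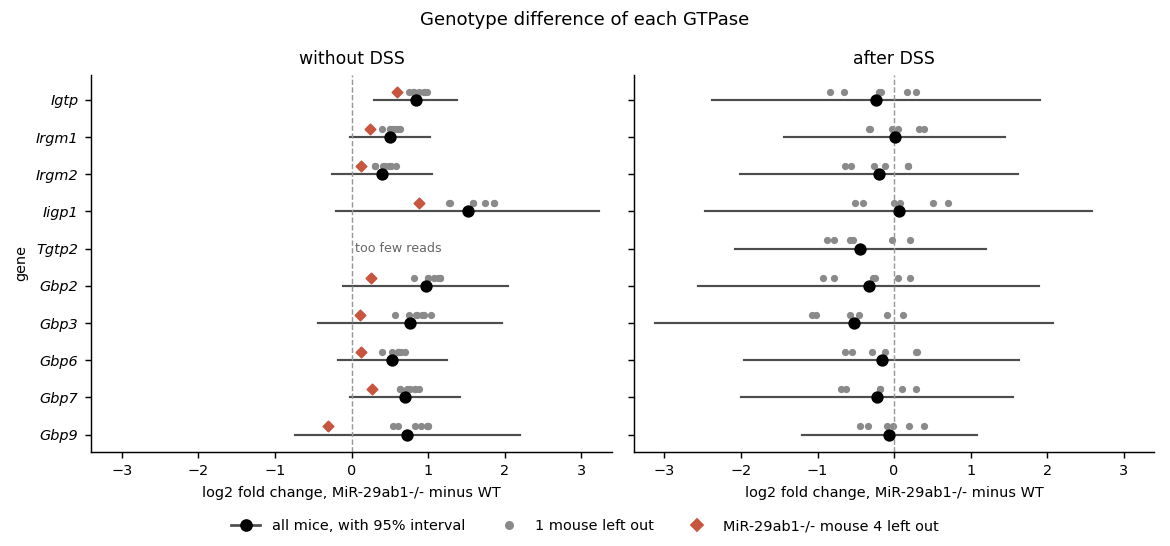
Genotype difference of each GTPase gene as log2 fold change, *MiR-29ab1-/-* minus WT, without DSS on the left and after DSS on the right; black dots are values from all mice with 95% intervals, grey dots values with 1 mouse left out, and red diamonds values without *MiR-29ab1-/-* mouse 4. On the left only the interval of *Igtp* lies wholly above 0 and the red diamonds are the lowest values with 1 mouse left out, below 0 for *Gbp9*; on the right every interval crosses 0 and grey dots fall on both sides of it.

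Whether the genotype difference itself changed between the experiments was tested in a model over all 14 mice. For 0 of the 9 genes with enough reads in each experiment did the genotype difference differ between the experiments at an unadjusted p under 0.05 by edgeR, and 0 by DESeq2, against 4.03% of all 16370 genes tested. The difference of *Igtp* was 1.06 lower on the log2 scale after DSS (standard error 0.78, unadjusted p = 0.199, adjusted p = 0.987 in edgeR). For the other 8 genes the value after DSS was lower by 0.48 (*Irgm1*) to 1.45 (*Iigp1*). *Tgtp2* was in the model as well, at −2.22 (standard error 1.49, unadjusted p = 0.157 in edgeR). Its value rests on 0 to 4 reads per mouse without DSS. With WT mouse 1 after DSS left out, *Igtp* passed the cutoff (−1.49, unadjusted p = 0.045 in edgeR).

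The GTPase genes varied more between mice than most genes did. The biological coefficient of variation, the spread between mice of a genotype beyond counting error, was 0.242 for *Igtp* and 0.237 for *Irgm1* without DSS, at the 64.4 and 63.4 percentile of all genes tested. It was 0.677 for *Iigp1* (98.4 percentile) and 0.608 for *Gbp9* (97.3 percentile). After DSS it ran from 0.421 for *Gbp9* (94.7 percentile) to 0.792 for *Gbp3* (99.5 percentile), so that all 10 genes were among the more variable genes of the table. *Igtp* reached 0.663 there.

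They also varied together. Across the 8 mice without DSS, Pearson's r of log2 CPM between pairs of the 9 tested genes ran from 0.582 (*Gbp9* with *Iigp1*) to 0.949, with a median of 0.836 over 36 pairs. Across the 6 mice after DSS it ran from 0.806 to 0.998, with a median of 0.970 over 45 pairs. These are descriptions over few mice of both genotypes, whose genes share the same libraries, and without DSS they rest in part on *MiR-29ab1-/-* mouse 4.

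**Figure D5:**
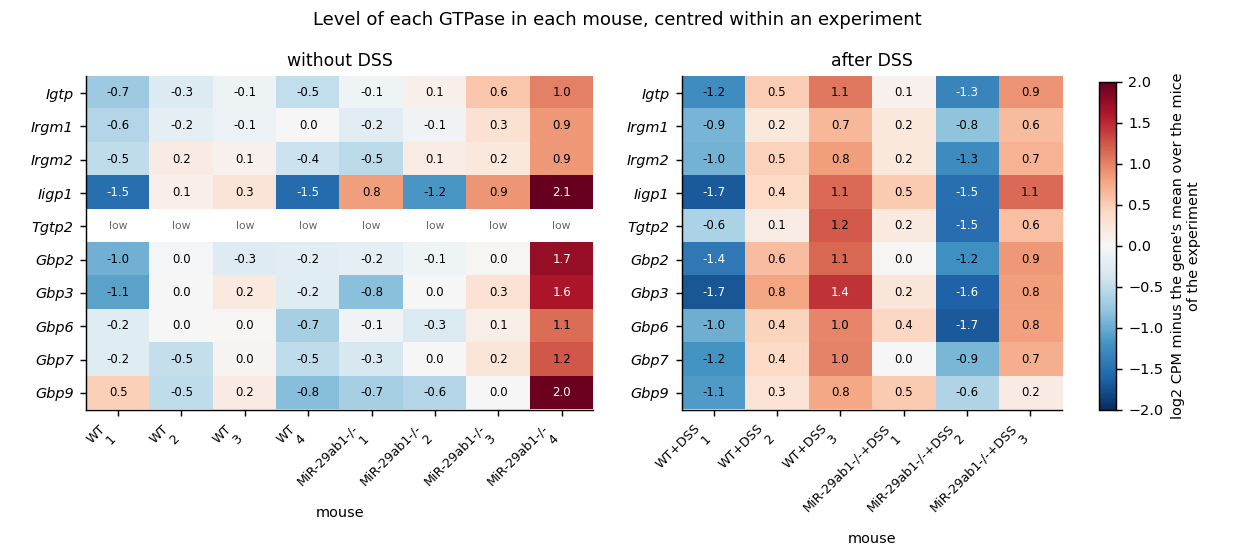
Each cell is the log2 CPM of a GTPase gene in a mouse minus that gene's mean over the mice of the experiment, red for higher and blue for lower; "low" marks *Tgtp2* without DSS, which had 0 to 4 reads. Whole columns share a colour: *MiR-29ab1-/-* mouse 4 is red throughout without DSS, and WT mouse 1 and *MiR-29ab1-/-* mouse 2 are blue throughout after DSS.

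Other genes followed the same mice. Of 14236 genes compared, the 8 whose log2 CPM was most like the mean of the GTPase genes in both experiments were *Ddx58*, *Slfn5*, *Tap1*, *Gm4951*, *Trafd1*, *Ifitm3*, *Bst2* and *Ube2l6*. Pearson's r with that mean was 0.929 to 0.957 over the 8 mice without DSS and 0.929 to 0.988 over the 6 mice after DSS. *Ddx58*, the gene of the RNA sensor RIG-I, headed the list with 0.949 and 0.988, and *Tap1*, the peptide transporter of antigen presentation, had 0.941 and 0.968. Genes of interferon gamma signalling ranged widely. *Ciita* had 0.915 and 0.746, *Nlrc5* 0.893 and 0.788, *Irf9* 0.779 and 0.976, and *Irf1* 0.704 and 0.80. The receptor gene *Ifngr1* had 0.381 and −0.524.

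The rest of the GTPase families was counted in the same way. Of 18 further genes, 12 had enough reads without DSS, where 3 were higher and 0 lower at an unadjusted p under 0.05 (edgeR, 0 adjusted), beside the 2.09% and 1.58% of all genes given above, with a median log2 fold change of 0.66. *Gm12250*, which encodes an effector GTPase called Irgb10, was higher by 0.99 on the log2 scale (adjusted p = 1.00 in edgeR), at 16.6 ± 8.60 CPM in *MiR-29ab1-/-* and 8.34 ± 2.01 CPM in WT mice (SD, n = 4 each). *Gm5431* rose by 1.078 and *Gm4951* by 2.61 on the log2 scale. *Gm4951* had 0.769, 0.953, 1.16 and 0.834 CPM in WT mice and 1.82, 0.973, 4.94 and 15.2 CPM in *MiR-29ab1-/-* mice, so 3 of 4 *MiR-29ab1-/-* mice exceeded every WT mouse. *Gbp4*, *Gbp5* and *Gbp8* had log2 fold changes of 0.28, 0.29 and 0.05 without DSS, each with WT mouse 1 above *MiR-29ab1-/-* mice 1 to 3. After DSS, 14 of the 18 were tested and 0 were higher or lower, where 3.98% of all genes were higher and 3.25% lower. The median was −0.16, beside −0.01 over all genes tested. *Ifi47*, another family gene near *Tgtp2*, had 754 to 2416 reads per mouse after DSS, and 2 to 12 in the mice without DSS. DSS, experiment, gene models and counting cannot be told apart in this gap, which was not tested.

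The signalling chain that leads to these genes starts with the cytokine. *Ifng*, the gene of interferon gamma itself, had 5, 2, 3 and 0 reads in WT mice 1 to 4 and 0, 2, 7 and 26 reads in *MiR-29ab1-/-* mice 1 to 4 without DSS. Its highest count was thus in the mouse with the highest GTPase levels, while WT mouse 1, with the most reads of the WT mice, had the lowest GTPase sum, 114 CPM. Between genotypes, p was 0.457 in a two-sided exact permutation test, where 0.0286 is the smallest possible. After DSS it had 14, 10 and 11 reads in WT mice and 26, 17 and 14 in *MiR-29ab1-/-* mice, which met at 14 reads (log2 fold change 0.87, standard error 0.45, unadjusted p = 0.082 in edgeR). The GTPase sums of mice 1 to 3 after DSS were 160, 482 and 703 CPM in WT and 418, 161 and 626 CPM in *MiR-29ab1-/-* mice. Whether *Ifng* and GTPase levels were related was not tested in either experiment, and the *Ifng* counts were low. *Ifngr1* had 162 ± 17.3 CPM and 162 ± 13.8 CPM (SD, n = 4 each) without DSS.

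Of the 13 genes of this chain, 12 were tested without DSS, and 2 were higher and 0 lower at an unadjusted p under 0.05 (edgeR, 0 adjusted), beside the same shares of all genes, with a median log2 fold change of 0.26. *Irf1*, the gene of an interferon regulatory factor, was higher by 0.26 on the log2 scale, at 108 ± 11.8 against 90.4 ± 4.96 CPM (SD, n = 4 each) (unadjusted p = 0.021, adjusted p = 1.00 in edgeR). *Ciita*, the master switch of MHC class II genes, was higher by 1.26 on the log2 scale, at 11.5 ± 7.45 against 4.81 ± 0.908 CPM (SD, n = 4 each) (unadjusted p = 0.011, adjusted p = 1.00 in edgeR). Its values were 9.85, 5.29, 8.62 and 22.3 CPM in *MiR-29ab1-/-* mice 1 to 4 and 4.01 to 5.76 CPM in WT mice. After DSS, 0 of 13 were higher or lower, where 3.98% of all genes were higher and 3.25% lower. *Irf1* then had a log2 fold change of −0.02 (unadjusted p = 0.940 in edgeR) and *Ifngr1* of 0.10 (unadjusted p = 0.398 in edgeR).

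No listed gene that loads or anchors the GTPases passed the test, which few genes of any kind did. Of all genes tested, 2.09% were higher and 1.58% lower without DSS, and 3.98% and 3.25% after DSS (edgeR, unadjusted p). Of 15 genes for the autophagy-type conjugation that brings these GTPases to membranes and for their partners, such as *Atg5*, *Gabarapl2* and *Sqstm1*, 0 were higher and 0 lower in either experiment (edgeR, unadjusted p), with median log2 fold changes of 0.03 without DSS and 0.02 after DSS. Of 5 genes for the lipid anchor, such as *Pggt1b* and *Icmt*, 0 passed in either experiment. Of the 5 sensors of bacterial lysis, 4 were tested in each experiment. *Casp4*, the caspase that binds bacterial lipopolysaccharide, was higher without DSS by 0.36 on the log2 scale, at 41.8 ± 5.65 against 32.6 ± 3.46 CPM (SD, n = 4 each) (unadjusted p = 0.012, adjusted p = 1.00 in edgeR), with *MiR-29ab1-/-* mouse 1 the highest. After DSS 0 of the 4 passed. The CPM ranges of the genotypes were then separate for 1 of 15 loading and partner genes and 2 of 5 anchor genes. They were also separate for 1 of the 4 sensors, beside 11.6% of all genes.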

How the data were processed

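Total RNA was extracted with TRIzol and sequenced from directional libraries by a commercial provider, per the labels and the study's methods. The authors deposited raw read counts per gene, a table for each experiment, without normalization. They also deposited FPKM values, used without DSS only in an alternative (the 6 FPKM columns after DSS were not used), gene lengths, and fold changes and p values of their own comparison, which were not used. HISAT2 and DESeq2 are named in the submitters' processing notes, and the counting tool, its strand setting and the genome build are not given in the sources used here. Coordinates are those of the tables, which fit GRCm38.

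Genes were kept by filterByExpr of edgeR with 10 as the minimum count and 15 as the smallest total. Counts were scaled by TMM and compared within each table, *MiR-29ab1-/-* minus WT, by edgeR 4.0.16 glmQLFit and glmQLFTest (robust) in R 4.3.3, with Benjamini-Hochberg adjustment over all genes tested. RPKM values were computed from counts and the table's gene length. Genes under the filter were compared on log2 CPM (prior count 2) by two-sided exact permutation tests. The interaction of genotype and experiment was fitted over 14 mice. Depth was 14231157 to 23153149 reads per mouse. The methods give littermate mice as a general rule, without saying which mice shared a litter or whether they were processed apart, so p-values measure the spread between these mice. Other settings were RLE size factors, DESeq2 1.42.0, leaving out the filter, at least 10 counts in every mouse, prior count 2, a replicate block, a model over 14 mice, limma 3.58.1 on log2 FPKM with a pseudocount of 1 or 0.1 (mean FPKM 0.1 or more), and each mouse left out. The tests were also run on simulated data, as a check of the calculation only, and no result here rests on that. The GTPase genes and the gene lists were chosen with earlier results of these data known. Named genes are the 10 GTPase genes, list genes with an unadjusted p under 0.05, *Irf1*, *Ifng* and *Ifngr1*, and the 8 genes most like the GTPase mean. *Gbp4*, *Gbp5*, *Gbp8*, *Ifi47*, *Muc2*, *Irf9*, *Nlrc5* and the example genes of lists without calls were named after their values were seen. A withheld item is not reported here. Sequences are from RefSeq on GRCm38.p6 and GENCODE vM21.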

Additional observations from a re-analysis of the deposited data

Results flagged for a closer look

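In *MiR-29ab1-/-* mouse 4 without DSS, 2 GTPase genes stood far from the other mice of the group by Dixon's test, in which the gap to the nearest mouse is divided by the range of the 4 mice and compared with the 95% critical value for 4 samples. *Gbp2* had 37.6 CPM there and 11.4 CPM in the next mouse, a ratio of 0.942. *Gbp9* had 20.7 CPM there and 5.20 CPM in the next mouse, a ratio of 0.888. Of the 18 groups tested (9 genes in 2 genotypes), chance flags about 1 in 20, and both genes were flagged in the same mouse. The groups of 3 mice after DSS were not tested this way.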

How the results depend on the processing

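Without DSS, 1 GTPase gene (*Igtp*) passed an unadjusted p under 0.05 in the main analysis, and this count was the same with RLE size factors, without the filter, with at least 10 counts in every mouse, with prior count 2 and with limma on FPKM at both pseudocounts. It was 5 with DESeq2, 2 with the replicate block (*Igtp* and *Irgm1*), 0 in a model over all 14 mice, and 1 to 5 with 1 mouse left out. Over all genes, 354 were higher and 245 lower with DESeq2, and 337 and 206 with the replicate block. In the model over 14 mice, 339 of 16370 genes were higher and 281 lower. With 1 mouse left out, 281 to 422 genes were higher and 170 to 336 lower. The adjusted p of *Igtp* ran from 0.148 to 1.00 over the alternatives. The median log2 fold change ran from 0.45 to 0.74 over the alternatives and from 0.24 to 0.98 with 1 mouse left out, and *Gbp9* ran from −0.31 to 1.00. Mice of the same number did not deviate together (r −0.194 to 0.149, 1 of 4 pairs above 0.1, 1 of 4 mice closest to its own number). With 4 pairs, this cannot show whether mice of the same number were littermates or handled together. The main analysis used no pairing.

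After DSS, 0 GTPase genes passed in any alternative and the median ran from −0.67 to 0.29 with 1 mouse left out. Single log2 fold changes changed sign in 20 of 60 such fits, none past the cutoff: *Gbp2* ran from −0.93 to 0.20, *Gbp3* from −1.08 to 0.12, *Gbp6* from −0.64 to 0.30, *Gbp7* from −0.70 to 0.29, *Gbp9* from −0.45 to 0.38, *Igtp* from −0.83 to 0.28, *Irgm1* from −0.33 to 0.39, *Irgm2* from −0.64 to 0.18, *Iigp1* from −0.51 to 0.71 and *Tgtp2* from −0.88 to 0.20. No paired analysis was possible because the columns after DSS carry no number of the labels. The interaction count was 0 with DESeq2 and with RLE size factors and 0 to 1 with 1 mouse left out. Without the filter, the counts over all genes at an unadjusted p were 703 higher and 396 lower without DSS, in place of 322 and 244, and 1037 and 782 after DSS, in place of 593 and 485; with 1 mouse left out after DSS they ran from 268 to 1288 and from 215 to 1242. The cause was not tested.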
